A study of Mus musculus with 12 samples.

Results

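Thrombospondins, tissue inhibitors of metalloproteinases (TIMPs), vasohibin-1 and pigment epithelium-derived factor are secreted proteins, most of which restrain vessel growth or matrix breakdown. Their transcripts were followed through 8 genes, namely Thbs1, Thbs2, Thbs3, Timp1, Timp2, Timp3, Vash1 and Serpinf1. The genes were taken by symbol from a table of 25116 genes, and all 8 were found and passed the filter on low counts, which left 15199 genes for testing. RNA had been sequenced from whole tumours collected on day 22, which E0771 cells, a murine line of triple-negative breast cancer, had formed in mammary fat pads of syngeneic Tie2CreER;ERKi C57BL/6J mice. Mice of both groups carried a tamoxifen-activated Cre recombinase under the endothelial Tie2 promoter and an inducible endorepellin knock-in gene. The induced group (7 tumours) received tamoxifen, and the control group (5 tumours) received a control injection, in each case before the tumour cells. No group received tamoxifen without the knock-in, so effects of the drug and of endorepellin cannot be told apart. The comparison asks how endothelial endorepellin, the C-terminal fragment of the proteoglycan perlecan, affects the tumour transcriptome.

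Thrombospondin-1 and thrombospondin-2 are trimeric matrix glycoproteins whose type 1 repeats bind CD36 on endothelial cells and inhibit angiogenesis, whereas thrombospondin-3 is a pentamer that lacks these repeats. TIMPs block matrix metalloproteinases in the space around cells. TIMP2 also takes part, with MMP14, in the activation of pro-MMP2, and TIMP3 is held in the matrix, inhibits ADAM17 and blocks binding of VEGF to its receptor VEGFR2. Vasohibin-1, a product of endothelial cells, acts with the small protein SVBP as a tubulin carboxypeptidase, and pigment epithelium-derived factor, encoded by Serpinf1, is an anti-angiogenic member of the serpin family.

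Libraries held 18993192 to 28372821 counts. Values are CPM, counts scaled to a common library total with TMM factors, and fold changes are log2 values of induced minus control from edgeR's quasi-likelihood test, with Benjamini-Hochberg adjustment over all 15199 genes. The labels do not say whether each tumour came from its own mouse, so p-values measure only the spread between these samples. On the first principal component of all tested genes, which carried 45.6% of the variance, induced 3, induced 4, control 1 and control 2 lay at 42.0 to 73.3, and the other 8 tumours at -40.3 to -4.50. In these 4 tumours long genes were counted relatively more, with a Spearman correlation across genes between exonic length and a library's deviation of 0.275 to 0.323, against -0.329 to -0.127 in the other 8. Endothelial markers, 10 genes, summed to 109 to 155 CPM in induced and 106 to 159 CPM in control tumours. The 5 epithelial markers, among them Epcam and Krt8, summed to only 2.28 to 4.58 CPM in induced and 1.68 to 6.66 CPM in control tumours, although the line is labelled a breast cancer line.

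Per length, the 8 transcripts covered a wide range, and Timp2 had the highest median. It stood at 118 CPM per kilobase of annotated exon over the 12 tumours, with a range of 84.4 to 177. Serpinf1 followed with 86.0 CPM per kilobase (67.4 to 144) and Timp1 with 35.4 (20.3 to 41.9). Thbs1 reached 5.15 CPM per kilobase (1.87 to 23.8) and Thbs3 2.15 (1.71 to 4.94). The lowest were Thbs2 at 0.449 (0.162 to 10.5), Vash1 at 0.392 (0.119 to 0.993) and Timp3 at 0.189 CPM per kilobase (0.0669 to 2.67). Timp2 exceeded Serpinf1 in 10 of 12 tumours and Thbs3 exceeded Thbs2 in 11 of 12, while Serpinf1 lay over Timp1, Timp1 over Thbs1 and Thbs1 over Thbs3 in each of the 12. Thbs2 exceeded Vash1 in 9 of 12 tumours and Vash1 exceeded Timp3 in 8 of 12, so the order of these 3 was not settled beyond their spread. With the longest transcript as length, Timp2 exceeded Serpinf1 in 6 of 12 tumours, Thbs1 exceeded Thbs3 in 10 and Vash1 exceeded Timp3 in 4, so the order of Timp2 and Serpinf1 was not settled either.

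**Figure D1:**
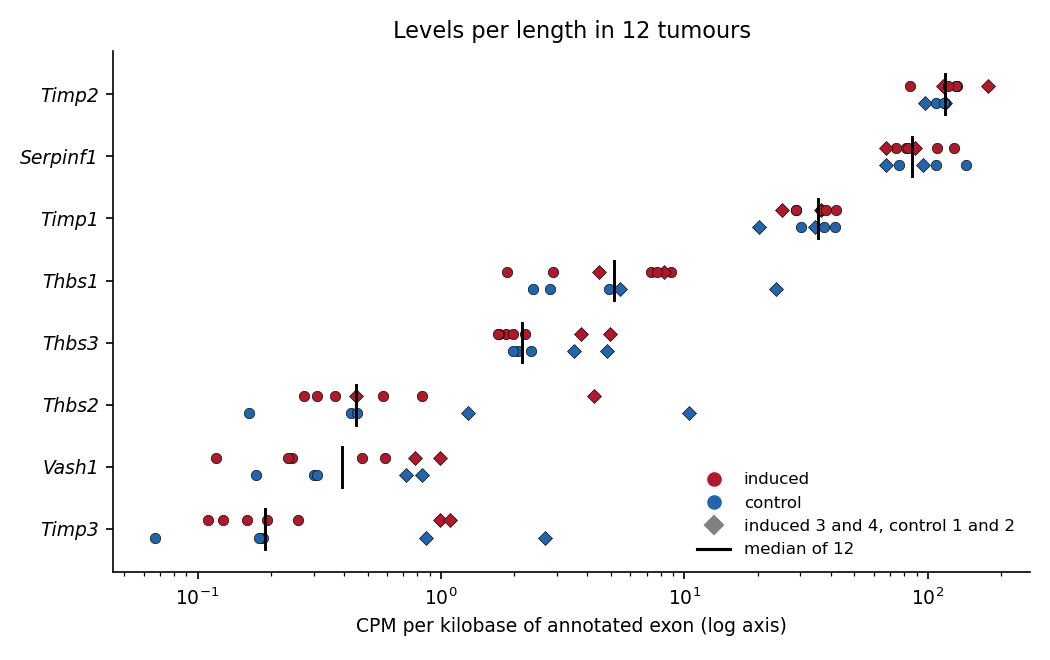
Levels of the 8 genes in CPM per kilobase of annotated exon (log axis), 1 point a tumour, with induced tumours above control tumours in each row, diamonds for induced 3 and 4 and control 1 and 2, and a line at the median of 12. Timp2, Serpinf1 and Timp1 have the highest medians, although Thbs1 in control 1 (23.8) passes the lowest Timp1 tumour (20.3), and the tumours of Thbs2 and Timp3 are the most widely spread.

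Timp2 held the largest share among the 3 TIMPs, and Thbs1 among the 3 thrombospondins, in each tumour. Timp2 made up 68.7% to 87.1% of the summed TIMP level per kilobase, Timp1 12.4% to 31.2% and Timp3 0.0452% to 1.98%. The highest share of Timp3 was that of control 1. Among the 3 thrombospondins, Thbs1 made up 47.3% to 79.8%, with 47.3% in induced 4 and 48.5% in induced 7, Thbs3 12.3% to 44.9% and Thbs2 3.34% to 26.8%. The share of Thbs2 was 24.4% in induced 4 and 26.8% in control 1, and it was 12.7% or lower in the other 10 tumours.

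RefSeq promoter windows (GRCm38.p6), from 250 bases before to 50 after the annotated start, were present for 7 of the 8 genes, all but Thbs1. Those of the most variable gene, Thbs2, and of the 3 TIMPs, whose levels and spread differ, are shown 5′ to 3′ on the strand of the gene. Capitals mark matches on either strand to the letters of a TATA box, a GC box, a CCAAT box or an AP-1 element, and no matches overlap. The windows are chr17:14694213-14694512 (minus strand) for Thbs2, chr10:86300162-86300461 (plus strand) for Timp3, chrX:20869916-20870215 (plus strand) for Timp1 and chr11:118355362-118355661 (minus strand) for Timp2. The Timp2 window lies wholly within the GENCODE M21 span of Timp2 given below, since the RefSeq start lies inside that span.
Thbs2: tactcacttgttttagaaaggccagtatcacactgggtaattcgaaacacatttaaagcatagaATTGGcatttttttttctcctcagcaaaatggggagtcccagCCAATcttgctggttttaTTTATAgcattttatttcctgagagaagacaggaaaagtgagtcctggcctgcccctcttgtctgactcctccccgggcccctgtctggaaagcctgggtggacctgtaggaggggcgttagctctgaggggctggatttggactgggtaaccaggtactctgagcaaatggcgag
Timp3: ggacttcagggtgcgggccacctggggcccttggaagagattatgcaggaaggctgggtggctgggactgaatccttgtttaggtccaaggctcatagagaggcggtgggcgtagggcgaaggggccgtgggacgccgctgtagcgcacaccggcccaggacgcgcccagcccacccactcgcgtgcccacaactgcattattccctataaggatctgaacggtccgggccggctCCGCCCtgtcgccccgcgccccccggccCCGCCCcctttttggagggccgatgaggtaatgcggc
Timp1: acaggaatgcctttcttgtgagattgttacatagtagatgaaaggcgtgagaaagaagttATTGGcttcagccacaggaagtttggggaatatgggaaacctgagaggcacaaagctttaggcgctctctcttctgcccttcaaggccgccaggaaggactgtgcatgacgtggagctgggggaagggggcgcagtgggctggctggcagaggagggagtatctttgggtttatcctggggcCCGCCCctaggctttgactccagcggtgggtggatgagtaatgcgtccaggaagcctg
Timp2: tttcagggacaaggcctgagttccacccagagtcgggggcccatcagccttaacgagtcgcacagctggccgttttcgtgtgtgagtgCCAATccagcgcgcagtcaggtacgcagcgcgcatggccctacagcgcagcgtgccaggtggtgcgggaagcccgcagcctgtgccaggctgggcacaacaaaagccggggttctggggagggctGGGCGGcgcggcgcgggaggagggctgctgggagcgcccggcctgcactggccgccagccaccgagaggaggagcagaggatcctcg

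The Thbs2 window held 1 match to the TATA box letters TATAAA, which 13.6% of 32851 RefSeq promoter windows hold. This match lay on the minus strand of the window, 126 bases before the start. The Thbs2 window also held 2 matches to the CCAAT box, which is spelled by its name and found in 37.4% of windows. The Timp3 window held 2 matches to the GC box letters GGGCGG, 15 bases before and 13 bases after the start. These letters are found in 35.7% of windows. The windows of Timp1 and Timp2 held 1 GC box and 1 CCAAT box each. Of the windows not shown, Thbs3 held 1 GC box and 1 CCAAT box, Vash1 1 GC box and Serpinf1 3 CCAAT boxes. None of the 7 windows held the AP-1 letters TGANTCA, which 7.81% of windows hold. Only exact letters were sought, so near matches are not marked, such as tgagtaa near the end of the Timp1 window, which differs in 1 letter. G and C made up 48.3% of the Thbs2 window and 50.7% of the Serpinf1 window, against 68.7% for Timp2, 67.0% for Timp3 and 64.3% for Vash1, with a median of 52.7% over all windows.

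None of the 8 genes differed between induced and control tumours beyond the spread of the tumours. By edgeR's quasi-likelihood test 0 of 8 passed the adjusted threshold of 0.05, as did 0 of all 15199 genes (0.0%), and each of the 8 had an adjusted p of 0.99989. At an unadjusted p under 0.05 there were again 0 of the 8, beside 2.13% of all genes (324 genes), and DESeq2 and limma-voom, which gave 0 genes past the threshold, had 607 and 995 genes at that level. By chance about 760 of 15199 genes would be expected there, so edgeR gave fewer and limma-voom more. Groups did not overlap in 0 of the 8 and in 0.0592% of all genes. Log2 fold changes were over 0 for 3 of 8 genes, where 49.8% of all genes were over 0, and their median was -0.15, beside -0.00083 over all genes.

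**Figure D2:**
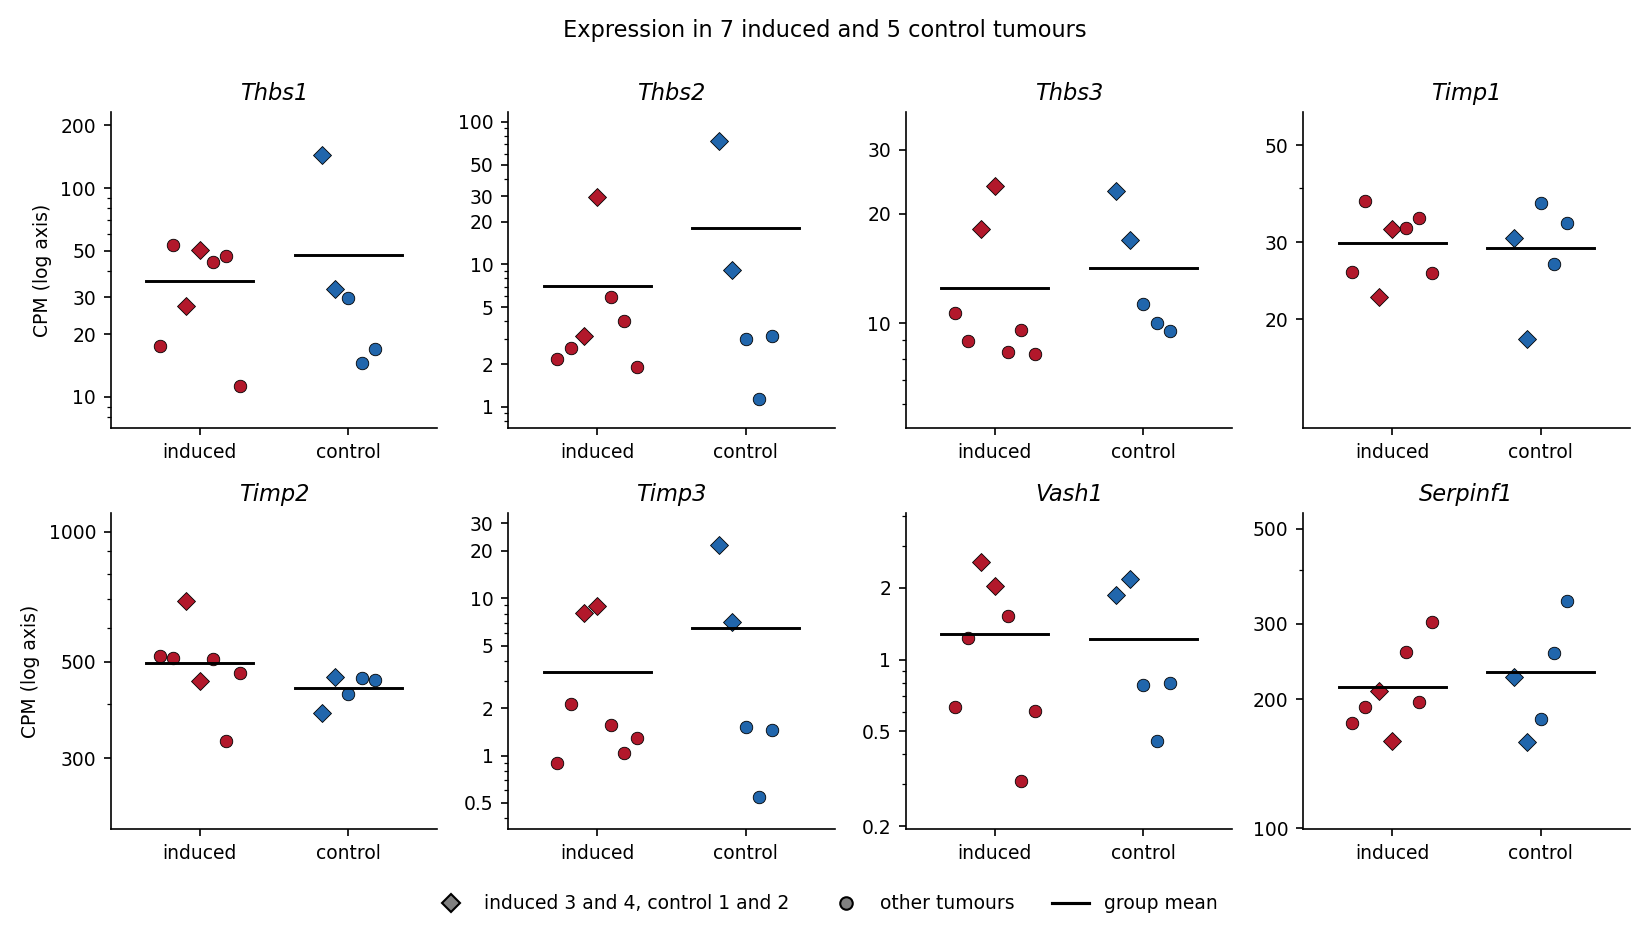
CPM (log axis) of each gene in 7 induced tumours (red, left) and 5 control tumours (blue, right), 1 point a tumour, with a line at the group mean. Diamonds mark induced 3 and 4 and control 1 and 2, which are the 4 highest tumours for Thbs3, Timp3 and Vash1, and control 1 lies highest for Thbs1, Thbs2 and Timp3.

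Thbs1, also a major product of platelets, is annotated at chr2:118111876-118127133 (plus strand, GRCm38, as for all positions here). It ran from 11.3 CPM in induced 7 to 53.5 CPM in induced 2, with a median of 44.1 CPM, over the 7 induced tumours. The control tumours 1 to 5 held 144, 32.9, 29.7, 14.5 and 17.0 CPM. The groups overlapped, 4 of 7 induced tumours lay above all control tumours but control 1, and control 1 exceeded every other tumour. The mean was 35.9 ± 16.9 CPM in induced (SD, n = 7) and 47.7 ± 54.6 CPM in control tumours (SD, n = 5). Between groups the log2 fold change was -0.41 (SE 0.55, 95% interval -1.61 to 0.78, edgeR adjusted p = 0.99989). Without control 1 it turned to 0.60 (SE 0.40, edgeR adjusted p = 0.99993), with a control mean of 23.5 ± 9.12 CPM over the other 4. Platelet markers, 4 genes measured, summed to 62.6 CPM in induced 4 and 31.0 CPM in control 1, against 8.44 to 22.6 CPM in the other 10 tumours. Most of both high sums came from Pf4 alone, which reached 53.8 CPM in induced and 27.5 CPM in control tumours. In control 1, the highest tumour for Thbs1, T cell markers, 5 genes, summed to 27.9 CPM, against 0.506 to 9.42 CPM in the other 11, and macrophage markers to 1299 CPM, against 134 to 708 CPM. The part of these cells in the Thbs1 values was not tested.

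Thbs2, a matrix protein of fibroblasts and wound tissue, was the most uneven of the 8 genes. Its annotated span is chr17:14665500-14694235 (minus strand). Induced tumours held 1.91 to 29.9 CPM with a median of 3.14 CPM, and control tumours 1 to 5 held 73.3, 9.07, 2.98, 1.13 and 3.16 CPM. Induced 4 and control 1 stood far over the others, the highest tumour was at 64.6 times the lowest, and the group medians were nearly equal at 3.14 CPM and 3.16 CPM. The log2 fold change was -1.33 (SE 0.98, 95% interval -3.44 to 0.77, edgeR adjusted p = 0.99989), and 0.79 without control 1 and -2.46 without induced 4. In the authors' deposited table the log2 fold change of Thbs2 was -1.34, with no p-value given. Fibroblast markers, 8 genes such as Col1a1 and Pdgfra, were also highest in these tumours, with a sum of 2607 CPM in induced 4 and 3676 CPM in control 1, against 986 to 1863 CPM in the other 10. Macrophage markers, 7 genes, summed to 708 CPM in induced 4 and 1299 CPM in control 1, against 134 to 305 CPM in the other 10. Their part in the Thbs2 values was not tested, and in whole tumours fewer cells of a type and less RNA per cell cannot be told apart.

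Thbs3 (chr3:89215180-89226837, plus strand) lies inside the annotated span of Mtx1 on the other strand. Of its exonic bases, 6.59% are shared with Mtx1, which held 31.3 to 38.4 CPM, and whether counting used strand was not given in the sources used here. Induced tumours held 8.25 to 23.8 CPM of Thbs3 with a median of 9.57 CPM, and control tumours 1 to 5 held 23.2, 17.0, 11.3, 10.0 and 9.52 CPM. The groups overlapped over nearly their whole range. The log2 fold change was -0.18 (SE 0.32, 95% interval -0.86 to 0.50, edgeR adjusted p = 0.99989) and 0.06 without control 1.

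Timp1, which is raised by inflammatory cytokines and binds CD63, and Timp2 were far steadier. Timp1 (chrX:20870166-20874735, plus strand) lies inside Syn1 on the other strand, a gene with 8.03 to 12.5 CPM. Induced tumours held 22.5 to 37.2 CPM of Timp1 with a median of 32.2 CPM, and control tumours 1 to 5 held 30.7, 18.01, 36.8, 26.7 and 33.2 CPM. The ranges of the groups nearly coincided, with means of 29.9 ± 5.40 CPM (SD, n = 7) in induced and 29.1 ± 7.22 CPM (SD, n = 5) in control tumours. The log2 fold change was 0.04 (SE 0.17, 95% interval -0.33 to 0.41, edgeR adjusted p = 0.99989), an interval that covers folds of 0.794 to 1.33. It was -0.02 without induced 2 and -0.10 without control 2.

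Timp2 (chr11:118301069-118355740, minus strand) holds the small gene Cep295nl (0.776 to 3.39 CPM) within its span. Induced tumours held 329 to 690.1 CPM with a median of 509 CPM, and control tumours 1 to 5 held 382, 461, 422, 459.7 and 454 CPM. Of the 7 induced tumours, 6 were above the control mean, and the lowest and the highest of all 12 tumours, induced 6 and induced 3, were both induced. Means were 497 ± 107 CPM (SD, n = 7) in induced and 436 ± 34.1 CPM (SD, n = 5) in control tumours. The log2 fold change of 0.19 (SE 0.14, 95% interval -0.12 to 0.50, unadjusted p = 0.209, adjusted p = 0.99989, edgeR) covers folds of 0.920 to 1.42. Timp2 alone among the 8 genes had a fold change of the same sign in all 20 other settings, from 0.06 to 0.28, none of them past the threshold.

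Timp3, the matrix-bound member, was the scarcest TIMP. At chr10:86300372-86349506 (plus strand) it lies inside Syn3 on the other strand, with which it shares 21.3% of its exonic bases. Syn3 itself held at most 0.636 CPM. Induced tumours held 0.898 to 8.90 CPM of Timp3 with a median of 1.57 CPM, and control tumours 1 to 5 held 21.8, 7.08, 1.51, 0.545 and 1.46 CPM. In both groups 2 tumours were high and the rest low, at 2.11 CPM or less, and the highest tumour was at 39.97 times the lowest. The log2 fold change was -0.93 (SE 0.85, 95% interval -2.77 to 0.91, edgeR adjusted p = 0.99989) and 0.35 without control 1.

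Vash1 (chr12:86678700-86692091, plus strand) was counted only 6 to 62 times a library. Induced tumours held 0.310 to 2.58 CPM with a median of 1.24 CPM, and control tumours 1 to 5 held 1.87, 2.17, 0.782, 0.454 and 0.801 CPM. The groups overlapped throughout, and the log2 fold change was 0.06 (SE 0.52, 95% interval -1.07 to 1.18, edgeR adjusted p = 0.99989). Its sign depended on single tumours, with -0.21 without induced 3, -0.10 without induced 4, -0.07 without control 3, -0.15 without control 4 and -0.06 without control 5. Vash2, the related vasohibin, was more abundant, at 24.7 ± 4.46 CPM (SD, n = 7) in induced and 25.5 ± 7.85 CPM (SD, n = 5) in control tumours. Per kilobase its median was 5.97 CPM, against 0.392 CPM for Vash1.

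Serpinf1 (chr11:75409769-75422701, minus strand) had the second highest median of the 8 per length, in an order with Timp2 that was not settled. Induced tumours held 159.7 to 303 CPM with a median of 197 CPM, and control tumours 1 to 5 held 225, 159, 179.9, 256 and 339.6 CPM. Both groups spanned about the same range. Induced over control, the log2 fold change was -0.12 (SE 0.20, 95% interval -0.55 to 0.30, edgeR adjusted p = 0.99989), which covers folds of 0.685 to 1.23, and it was 0.06 without control 5.

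**Figure D3:**
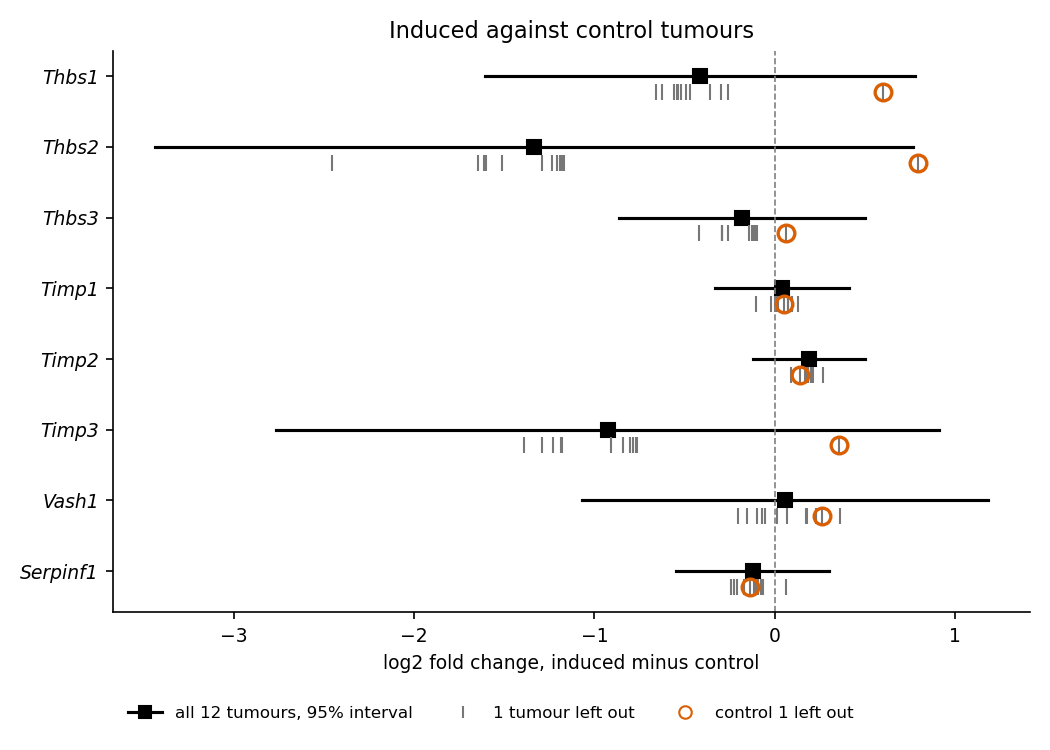
Log2 fold change of induced minus control for each gene (square) with its 95% interval (line), and below it the values with 1 tumour left out (ticks) and with control 1 left out (circle). All 8 intervals include 0, and leaving out control 1 turns Thbs1 to 0.60, Thbs2 to 0.79, Thbs3 to 0.06 and Timp3 to 0.35.

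The 8 genes varied unevenly between tumours. The SD of log2 CPM over the 12 tumours was 1.70 for Thbs2, 1.58 for Timp3, 1.02 for Thbs1, 0.90 for Vash1 and 0.56 for Thbs3. It was 0.35 for Serpinf1, 0.31 for Timp1 and 0.26 for Timp2, where the median over all tested genes was 0.31. Thbs2 was thus more variable than 99.2% of tested genes, Timp3 than 98.9% and Thbs1 than 94.6%, whereas Timp2 was more variable than 40.2%. Counting error weighs most on Vash1 and Timp3, whose lowest libraries held 6 and 12 counts.

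Timp3, Thbs3 and Vash1 were higher in each of induced 3, induced 4, control 1 and control 2 than in any other tumour. Timp3 held 7.08 to 21.8 CPM in the 4 tumours against 0.545 to 2.11 CPM in the other 8, Thbs3 17.0 to 23.8 against 8.25 to 11.3 CPM, and Vash1 1.87 to 2.58 against 0.310 to 1.53 CPM. The 4 tumours were set apart by the first component of all tested genes, these 8 included, so this is a description, and 12% of all tested genes had the 4 above the other 8. None of the 8 genes had the 4 below the other 8, as 15.1% of all genes did. Thbs1 and Thbs2 did not divide this way, since 4 of the 8 other tumours exceeded the lowest of the 4 for Thbs1 and 3 did for Thbs2.

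A smooth trend of each library against exonic length stood at 0.09 to 0.14 (log2) in the 4 tumours and -0.13 to -0.04 in the other 8 at the 8144 exonic bases of Timp3. After it was subtracted, Timp3 deviated from its own mean by 1.33 to 2.98 in the 4 tumours and by -1.92 to -0.18 in the other 8. Thbs3 then deviated by 0.43 to 0.92 in the 4 tumours and by -0.57 to -0.10 in the other 8, and Vash1 by 0.93 to 1.35 and -1.55 to 0.47. For Timp1, the shortest at 888 exonic bases, the trend stood at -0.33 to -0.30 in the 4 tumours and at 0.04 to 0.33 in the other 8. Less this trend, Timp1 deviated by -0.38 to 0.47 in the 4 tumours and by -0.45 to 0.16 in the other 8. Its highest values were then those of induced 4 (0.47) and control 1 (0.42), whereas in CPM induced 2 was highest. Fibroblast markers summed to 1653 to 3676 CPM in the 4 tumours and 986 to 1830 CPM in the other 8. Pericyte and smooth muscle markers, 8 genes, summed to 111 to 191 CPM in the 4 and 106 to 174 CPM in the other 8. The part of these cells in the pattern was not tested.

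**Figure D4:**
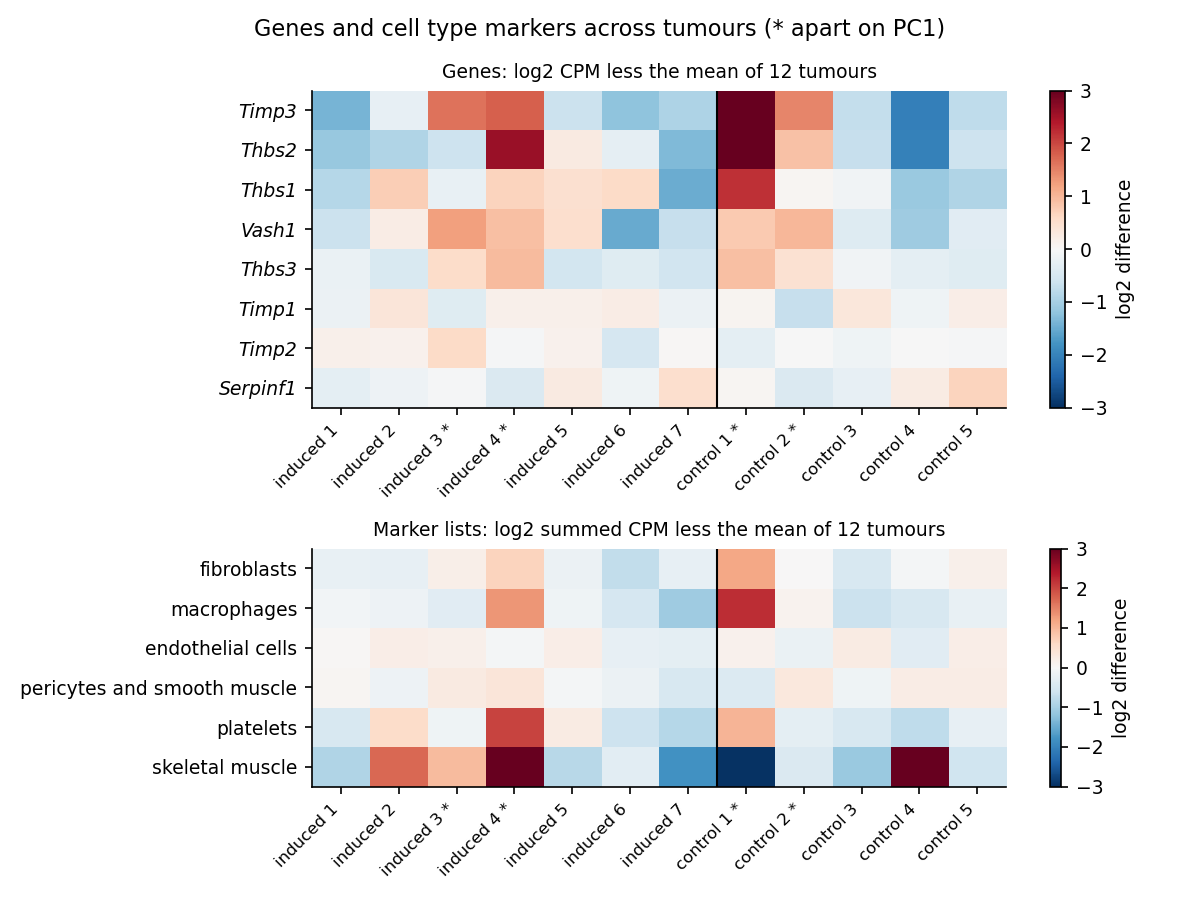
Log2 CPM of the 8 genes (top) and log2 summed CPM of 6 marker lists (bottom), each less its mean over the 12 tumours, with induced tumours left of control tumours and colours held at 3 and -3. Asterisks mark the 4 tumours apart on the first component, where Timp3, Vash1 and Thbs3 are red, Thbs3 only lightly (0.47 to 0.95). Timp2, Timp1 and Serpinf1 are also pale but are not above their means in all 4, so they do not share this pattern.

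Each gene had its own closest companions across the 12 tumours. Likeness was Pearson's r of log2 CPM, given as a description, since the points share libraries, scaling and tumour makeup. Thbs2 was most like Postn, the fibroblast matrix protein periostin (r = 0.989, Spearman's rho = 0.937, n = 12), then Col5a2, a fibrillar collagen chain (r = 0.978), and Fzd1, a Wnt receptor (r = 0.978). Over the 8 tumours outside the 4 apart, r was 0.962 with Postn, 0.83 with Col5a2 and 0.839 with Fzd1. Thbs1 was most like Gbp2b, an interferon-induced GTPase (r = 0.962, rho = 0.916, n = 12, and r = 0.921 over the 8), Il7r, the interleukin-7 receptor (r = 0.924), and Fam78a (r = 0.919). Timp2 was most like Prnp, the prion protein (r = 0.968, rho = 0.881, n = 12, and r = 0.965 over the 8), then Pttg1ip (r = 0.917) and Ppm1l, a protein phosphatase (r = 0.901).

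For Thbs3, Timp3 and Vash1, which followed the 4 tumours, likeness rested partly on those tumours. Over the 8 other tumours, r also fell for companions of Thbs2 and Timp1. Thbs3 was most like Parp12 (r = 0.970, rho = 0.832, n = 12), Trim21 (r = 0.963) and Chd9 (r = 0.960), and r with Parp12 was 0.596 over the 8 other tumours. Timp3 was most like Rapgef2 (r = 0.981, rho = 0.818, n = 12, and r = 0.740 over the 8), Fkbp15 (r = 0.979) and Aff1 (r = 0.978). Vash1 was most like Hgsnat, a lysosomal enzyme (r = 0.953, rho = 0.972, n = 12, and r = 0.870 over the 8), AW011738 (r = 0.947) and Tgfbrap1 (r = 0.939). Timp1 and Serpinf1 did not follow the 4 tumours. Timp1 was most like Entpd6 (r = 0.898, rho = 0.769, n = 12, and r = 0.781 over the 8), Sparc, a matrix glycoprotein (r = 0.861), and Rcn1 (r = 0.858). Serpinf1 was most like Capns1, the small calpain subunit (r = 0.917, rho = 0.867, n = 12, and r = 0.960 over the 8), Igfbp4 (r = 0.913) and Grhpr (r = 0.912). Among the 8 genes themselves, r was 0.893 for Thbs3 with Timp3 and -0.352 over the 8 other tumours, and 0.848 for Timp3 with Vash1 and 0.720 over the 8.

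The relatives of these genes were scarce, except Vash2. Thbs4 had 0 to 177 counts a library, with 177 in induced 4, 91 in control 1 and 67 in control 2 and 8 or fewer in the other 9. Timp4 had 0 to 24 counts and Comp, the thrombospondin of cartilage, 0 to 7, and these 3 genes did not pass the filter.

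Receptors and partners of the 8 proteins were present, and none of the 17 listed, all measured, passed the threshold. Of these, 0 had an unadjusted p under 0.05, beside 2.13% of all genes. In induced tumours 6 were higher and 11 lower, with a median log2 fold change of -0.12. Those with the smallest p were Calr, a calcium-binding chaperone that binds thrombospondin-1 with LRP1 (531 ± 57.9 CPM in induced and 617 ± 107 CPM in control tumours), Cd47, the receptor of the thrombospondin C-terminus (271 ± 40.8 and 247 ± 14.5 CPM), Reck, a membrane-bound protease inhibitor (2.08 ± 0.501 and 2.68 ± 1.38 CPM), and Sirpa, the ligand of CD47 on myeloid cells (62.8 ± 25.7 and 80.2 ± 49.2 CPM; SD, n = 7 and n = 5).

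Of 24 listed proteases that TIMPs inhibit, 19 passed the filter, 5 of them higher and 14 lower in induced tumours, with a median log2 fold change of -0.18, and 0 passed the threshold. At an unadjusted p under 0.05, 1 was higher and 2 were lower, where 0.592% and 1.54% of all genes were. Mmp12, the macrophage metalloelastase, held 29.8 ± 16.5 CPM in induced and 14.5 ± 6.86 CPM in control tumours. Mmp9, a gelatinase of neutrophils and macrophages, held 1.64 ± 1.20 CPM in induced and 13.4 ± 24.1 CPM in control tumours, which ran from 0.733 to 56.5 CPM. Neutrophil markers, 5 genes, summed to 10.5 to 27.4 CPM in induced and 11.8 to 121 CPM in control tumours. Macrophage markers summed to 134 to 708 CPM in induced and 180 to 1299 CPM in control tumours. The neutrophil sum was highest in control 2 and the macrophage sum in control 1. The part of these cells in the Mmp9 values was not tested. Mmp3, stromelysin-1, held 3.96 ± 0.988 CPM in induced and 8.60 ± 9.60 CPM in control tumours, with 25.5 CPM in the highest control tumour. Mmp13, a collagenase, held 30.1 ± 26.1 CPM in induced and 16.2 ± 6.60 CPM in control tumours (SD, n = 7 and n = 5). Its induced median was 22.7 CPM and its highest induced tumour held 88.6 CPM. Mmp13 was not among the genes at an unadjusted p under 0.05. Mmp14 and Mmp2, chosen for their known link to TIMP2 after their values were seen, held 391 ± 69.2 CPM in induced and 357 ± 68.3 CPM in control tumours (Mmp14) and 44.7 ± 17.4 and 56.1 ± 21.4 CPM (Mmp2). Per kilobase, the median over 12 tumours was 63.9 CPM for Mmp14 and 12.5 CPM for Mmp2, against 118 CPM for Timp2.

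Among 19 other endogenous inhibitors of angiogenesis, 14 passed the filter, 4 of them higher and 10 lower, with a median log2 fold change of -0.04, and 0 passed the threshold. Flt1, the VEGF receptor whose soluble form traps VEGF, was the 1 gene at an unadjusted p under 0.05. Of all genes, 0.592% were higher and 1.54% lower at that level. Flt1 held 16.1 ± 2.82 CPM in induced and 13.2 ± 1.20 CPM in control tumours. Dcn, the proteoglycan decorin, held 8.72 ± 9.02 CPM in induced and 32.9 ± 63.6 CPM in control tumours, with 146 CPM in the highest control tumour. Fbln5 held 1.01 ± 0.633 CPM and 2.01 ± 3.22 CPM, Cxcl9 24.3 ± 12.7 CPM and 33.1 ± 15.9 CPM, and Hspg2, the perlecan gene that also encodes endorepellin, 536 ± 100.1 CPM and 550.2 ± 81.4 CPM in induced and control tumours (SD, n = 7 and n = 5). Of 16 known inducers and regulators of these genes, 6 were higher and 10 lower, with a median of -0.08, and 0 passed the threshold. Il1b, an inflammatory cytokine, was the 1 gene at an unadjusted p under 0.05, and it was lower, as were 1.54% of all genes. Il1b held 9.04 ± 4.21 CPM in induced and 23.7 ± 17.7 CPM in control tumours. Tnf held 10.6 ± 2.83 CPM and 13.3 ± 3.57 CPM, Il6 1.56 ± 0.334 CPM and 2.01 ± 0.817 CPM, and Egr1 3.46 ± 0.721 CPM and 4.60 ± 2.68 CPM in induced and control tumours (SD, n = 7 and n = 5).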

How the data were processed

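Bulk RNA-seq of 12 tumours was used. Per the file headers, raw counts for each Ensembl gene were deposited by the authors beside rlog values, which are on the log2 scale. The authors deposited with it their own comparison of the groups, as a log2 fold change, a fold with a sign (used as a score), a p-value and an adjusted p-value. How it was tested, and the aligner, counter, annotation and strand setting, were not given in the sources used here. Its genome build was GRCm38 (mm10), per the submitters' processing notes. The labels' growth and treatment text describes another cell line, so groups came from the titles. Library names in the labels matched each column to a sample. The rlog values were not tested. Of 25116 rows 273 lacked a symbol or held a date, and 189 were named by ID from a reference table.

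Counts were fitted with edgeR 4.0.16 in R 4.3.3 (filterByExpr by group, minimum count 10, TMM, robust quasi-likelihood F test, two-sided, Benjamini-Hochberg, threshold 0.05). The 95% intervals use the fit's standard error and degrees of freedom. Log2 CPM had a prior count of 2. Exonic length and positions came from GENCODE M21. Length trends were lowess curves with a span of 0.3. The fit was tested on simulated data. Library pairs within a group differed by 13 to 220 chi-square per gene, so none was treated as a repeat deposit of another, which does not show that they came from separate mice. The genes and lists were chosen with earlier results of these data known. Named were the 8 genes, the 4 genes of each list with the smallest p, Hspg2, and the 3 genes most like each of the 8; Mmp14 and Mmp2 were added outside this rule after their values were seen. Alternatives included DESeq2 1.42.0 and limma 3.58.1, other filters and factors, a replicate block and the removal of libraries; the fit without 4 tumours was added after the data were seen.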

Additional observations from a re-analysis of the deposited data

Results flagged for a closer look

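Among 16 groups of values (8 genes in induced and control tumours), 3 held a tumour whose distance from its neighbour was a large part of the group's range. Chance flags about 1 group in 20 if values are normally distributed and groups independent. Neither was shown here, since the values are CPM of the same tumours. Thbs2 stood at 29.9 CPM in induced 4, where the next induced tumour had 5.87 CPM. It stood at 73.3 CPM in control 1, where the next control tumour had 9.07 CPM. Thbs1 stood at 144 CPM in control 1, where the next control tumour had 32.9 CPM.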

How the results depend on the processing

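Of 160 combinations of gene and setting, 22 changed sign and 159 had an adjusted p, none past the threshold (lowest 0.731); DESeq2 gave no p for Thbs2. All 20 other settings gave 0 genes past the threshold over all genes, and all 14 settings of the overlap count gave 0 members. With limma-voom and quality weights the log2 fold change was 0.59 for Thbs1, 0.086 for Thbs2, -0.0023 for Timp1 and 0.00043 for Timp3. Without the 4 tumours apart, it was 0.76 for Thbs1, 0.44 for Thbs2, -0.070 for Timp1 and 0.23 for Timp3. With each library left out in turn it ran from -0.66 to 0.60 for Thbs1, -2.46 to 0.79 for Thbs2, -0.42 to 0.063 for Thbs3, -0.10 to 0.13 for Timp1, 0.09 to 0.27 for Timp2, -1.39 to 0.35 for Timp3, -0.21 to 0.36 for Vash1 and -0.24 to 0.061 for Serpinf1. The cause was not tested. Tumours of equal replicate number had correlations of deviations from -0.531 to 0.21. The tumours apart on the first component, induced 3 and 4 and control 1 and 2, have unlike numbers in the groups and weigh on these values. The correlations therefore cannot show whether tumours were paired. A replicate block over numbers 1 to 5 gave log2 fold changes of 0.29 for Thbs1 and 0.12 for Timp3. With the longest transcript as length, Serpinf1 stood at 110.8 CPM per kilobase, against 86.0 with all exons, and the order of the 8 medians was unchanged, although Timp2 then exceeded Serpinf1 in 6 of 12 tumours, against 10 of 12. Low counts limit Vash1 and Timp3 most.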
